A study of Mus musculus with 25 samples.

Results

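Metallothioneins and zinc transporters were followed through mouse liver by reading out 7 genes: Mt1, Mt2, Slc30a1, Slc30a10, Slc39a4, Slc39a7 and Slc39a14. They were taken by gene name from the 30524 genes that the deposited expression tables list, and all 7 stood in each of the 5 tables and were among the 12741 genes tested. The libraries are bulk RNA sequencing of liver from 25 C3H/HeJ mice, a strain prone to hepatocellular carcinoma, labelled male and 5 weeks old at the start. Diethylnitrosamine (DEN), a carcinogen that liver enzymes turn into a DNA-alkylating agent, was injected at 25 mg/kg in 5 cycles in 4 of the groups, and saline in the Untreated group (n = 5). After a rest, DEN-injected animals received vehicle (DEN, n = 6), caffeine at 50 mg/kg 3 times a week (DEN_CAF, n = 5), the kinase inhibitor sorafenib at 30 mg/kg 2 times a week (DEN_SOR, n = 4) or both (DEN_CAF_SOR, n = 5), for 3 weeks by gavage. The vehicles were tap water and corn oil with 2% DMSO. The labels name the tissue as liver without saying whether nodules or surrounding tissue were taken, and the age at collection is not given in them.

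Metallothioneins are small cysteine-rich proteins that bind zinc, copper and cadmium, and the liver is a main site of their synthesis. Their transcription is driven by the zinc-sensing factor MTF1, which binds metal response elements in the promoter, and in liver also by glucocorticoids and by interleukin signalling through STAT3. Zinc transporters form 2 families: SLC30 proteins carry metal out of the cytosol, into organelles or out of the cell, and SLC39 proteins carry it into the cytosol. Some members mainly move other metals, and manganese is the main cargo of SLC30A10 in liver.

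In the GRCm39 build used for the files, Mt1 (ENSMUSG00000031765) lies on the plus strand at chr8:94905710-94906955 and Mt2 (ENSMUSG00000031762) on the same strand at chr8:94899292-94900196, 5513 bases apart. The zinc exporter gene Slc30a1 (ENSMUSG00000037434) lies at chr1:191638879-191645359 and Slc30a10 (ENSMUSG00000026614) at chr1:185187045-185200959, both on the plus strand. The other members are on minus strands: Slc39a4 (ENSMUSG00000063354) at chr15:76496583-76501584, Slc39a7 (ENSMUSG00000024327) at chr17:34247243-34250656 and Slc39a14 (ENSMUSG00000022094) at chr14:70540918-70588874.

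Promoter sequence from RefSeq, in the GRCm38.p6 build, was held for 5 of the 7 members. The 250 bases before the start site are shown for the 3 members known as MTF1 targets, because the 2 metallothioneins and the zinc exporter can then be set beside their levels. They lie on plus strands at chr8:94178839-94179088 (Mt1), chr8:94172368-94172617 (Mt2) and chr1:191906531-191906780 (Slc30a1). Capitals mark the metal response element core, searched as TGCACNC or TGCGCNC on both strands.
Mt1: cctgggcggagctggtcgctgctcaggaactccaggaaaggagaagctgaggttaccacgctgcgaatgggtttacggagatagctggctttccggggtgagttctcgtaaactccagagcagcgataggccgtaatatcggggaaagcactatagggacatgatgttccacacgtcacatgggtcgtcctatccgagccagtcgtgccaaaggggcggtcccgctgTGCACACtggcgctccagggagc
Mt2: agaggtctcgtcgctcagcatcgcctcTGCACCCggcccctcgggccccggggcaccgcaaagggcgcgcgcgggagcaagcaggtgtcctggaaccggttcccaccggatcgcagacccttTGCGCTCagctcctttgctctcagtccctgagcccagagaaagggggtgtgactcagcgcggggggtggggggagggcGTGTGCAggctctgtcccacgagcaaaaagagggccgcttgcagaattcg
Slc30a1: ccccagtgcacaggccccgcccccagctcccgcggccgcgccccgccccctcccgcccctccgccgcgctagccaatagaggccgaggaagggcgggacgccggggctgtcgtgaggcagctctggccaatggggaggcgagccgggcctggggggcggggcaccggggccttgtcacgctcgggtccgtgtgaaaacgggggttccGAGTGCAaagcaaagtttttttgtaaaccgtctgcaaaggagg
The core stood 1 time in the Mt1 stretch, 23 to 17 bases before the RefSeq start, and 3 times in the Mt2 stretch. In Slc30a1 it stood 1 time on the minus strand, 43 to 37 bases before the start. Over the whole 300-base window, which adds 50 bases after the RefSeq start, Mt1 held 3 cores, Mt2 held 4 and Slc30a1 held 2. The 2 further Mt1 cores lay at bases 3 to 9 and 21 to 27 after that start. Which start these livers use was not tested, so a core after the RefSeq start need not be transcribed. Slc30a10 held 3, of which 2 overlapped on opposite strands, and Slc39a7 held 0. Of 32851 promoter windows of the same length, 25.7% held at least 1 core, 7.11% at least 2 and 1.97% at least 3. The antioxidant response element core TGACNNNGC stood 1 time in each of the Mt2 and Slc30a1 windows, against 12.4% of all windows with at least 1. No match to the STAT motif TTCNNNGAA (8.30% of windows) or to the palindromic glucocorticoid response element (0.00913%) stood in these 5 windows. No motif match overlapped one of another kind in the printed stretches. A match describes letters in the window and was not tested as a binding site.

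Levels are given as FPKM, in which a gene's reads are scaled by its length and by the assigned reads of the library, so that genes can be compared with each other. Assigned reads per library ran from 14750278 to 21992613. 3 libraries went against their label: Untreated 3, 4 and 5 had 13370 to 29770 reads of Xist, which female cells transcribe from their silenced X, against at most 21 in every DEN-injected library. The share of reads from mitochondrial genes ran from 6.36% to 34.8% in the 10 libraries numbered 3 or 4 in their groups, and from 5.65% to 9.81% in the other 15. In bulk tissue, fewer cells of a type and less RNA per cell cannot be told apart. Among marker lists of liver cell types, the summed level of 7 cholangiocyte genes, of which Cftr was at 0 in 5 libraries, was 13.1 to 18.4 FPKM in Untreated and 25.9 to 93.4 in DEN. It was 45.4 to 125 in DEN_CAF, 24.5 to 197 in DEN_SOR and 32.9 to 170 in DEN_CAF_SOR, and its part in the results below was not tested.

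The metallothioneins were the most abundant members and the most variable between mice. Over the 25 libraries the median was 557 FPKM for Mt1 and 553 FPKM for Mt2, and the highest library exceeded the lowest 30.3-fold for Mt1 and 29.2-fold for Mt2. The transporters followed in the order Slc39a14 (median 18.8 FPKM), Slc30a10 (9.24), Slc30a1 (7.29), Slc39a4 (6.88) and Slc39a7 (0.561). The ratio of highest to lowest library was 3.22 for Slc39a14, the smallest of the 7, and 5.23 for Slc30a1, 8.31 for Slc30a10, 15.6 for Slc39a7 and 21.7 for Slc39a4. Together Mt1 and Mt2 took from 0.0135% to 0.374% of a library's reads, with a median of 0.110%.

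Groups were compared with limma on log2(FPKM + 1), in 1 fit of all 25 libraries, and a gene is called where its Benjamini-Hochberg adjusted p over the 12741 genes is below 0.05 (two-sided). None of the 7 members was called in any of 10 pairwise comparisons, in the interaction of the 2 drugs, or in a test of any difference among the 5 groups. Among all tested genes, 2.04% were called for DEN against Untreated, 1.01% for DEN_CAF, 2.62% for DEN_SOR and 0.494% for DEN_CAF_SOR against Untreated. Against DEN the shares were 0.00785% for DEN_CAF, 0% for DEN_SOR and 0% for DEN_CAF_SOR. They were 0% for DEN_CAF_SOR against DEN_SOR, DEN_CAF_SOR against DEN_CAF, DEN_CAF against DEN_SOR and the interaction, and 0.95% for any difference. By edgeR on the recovered reads 0 members were called as well. edgeR called 4.69% of all genes for DEN, 1.71% for DEN_CAF, 4.14% for DEN_SOR and 1.3% for DEN_CAF_SOR against Untreated, 0.00785% for DEN_CAF against DEN, 2.17% for any difference and 0% in the rest. DESeq2 called 1 member for DEN_SOR against Untreated (Slc30a10), where it called 9.38% of all genes, and 1 for any difference (Slc39a7), where it called 6.58%. Slc39a7 entered the tests mainly through DEN libraries, as given below. At an unadjusted limma p under 0.05, 8 of the 77 values (7 members in 11 comparisons) passed, and these are named below. Of all 12741 genes, 2096 passed for DEN, 1565 for DEN_CAF, 2371 for DEN_SOR and 1466 for DEN_CAF_SOR against Untreated. Against DEN, 358 passed for DEN_CAF, 789 for DEN_SOR and 346 for DEN_CAF_SOR. DEN_CAF_SOR against DEN_SOR had 432, DEN_CAF_SOR against DEN_CAF 376, DEN_CAF against DEN_SOR 477 and the interaction 506. The comparisons of the drug groups with DEN share the DEN libraries, and those with Untreated share the Untreated libraries.

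No member had groups that did not overlap in any of the 10 pairwise comparisons. The share of all tested genes with groups that did not overlap was 3.93% for DEN against Untreated, 5.51% for DEN_CAF, 7.28% for DEN_SOR and 4.6% for DEN_CAF_SOR against Untreated. Against DEN it was 0.267% for DEN_CAF, 0.699% for DEN_SOR and 0.29% for DEN_CAF_SOR. It was 0.856% for DEN_CAF_SOR against DEN_SOR, 0.997% for DEN_CAF_SOR against DEN_CAF and 1.25% for DEN_CAF against DEN_SOR.

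Mt1 encodes 1 of the 2 metallothioneins made in most tissues. In Untreated libraries 1 to 5 it stood at 585, 1815, 946, 333 and 1094 FPKM. In DEN the lowest library had 72.7 FPKM, the median was 303 and the highest, DEN 1, had 1747. In DEN_CAF libraries 1 to 5 the level was 1341, 204, 221, 442 and 754 FPKM. Untreated mice thus held the highest group median (946 FPKM) and 3 of the 6 DEN mice lay below every Untreated mouse, while DEN 1 lay among the highest. In DEN_SOR libraries 1 to 4 Mt1 stood at 1827, 605, 239 and 767 FPKM. In DEN_CAF_SOR libraries 1 to 5 it stood at 440, 382, 2203, 766 and 557 FPKM. All groups overlapped, and in DEN_SOR and DEN_CAF_SOR a single mouse stood far above the rest. The means were 955 ± 566 FPKM in Untreated (SD, n = 5), 505 ± 624 in DEN (n = 6), 592 ± 474 in DEN_CAF (n = 5), 860 ± 682 in DEN_SOR (n = 4) and 870 ± 760 in DEN_CAF_SOR (n = 5).

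Mt2, the neighbouring metallothionein gene, was spread between mice much as Mt1 was. It stood at 625, 2028, 920, 393 and 1169 FPKM in Untreated libraries 1 to 5, and in DEN at 74.9 (lowest), 285 (median) and 2186 (highest, DEN 1). In DEN_CAF libraries 1 to 5 it stood at 1662, 222, 209, 355 and 1037 FPKM. Under sorafenib alone (libraries 1 to 4) it stood at 2187, 827, 334 and 663 FPKM. Of the 6 DEN mice, 4 lay below every Untreated mouse and 1 lay above them all. In DEN_CAF_SOR libraries 1 to 5 Mt2 stood at 553, 442, 1694, 535 and 733 FPKM. Per length, the Mt2 level was 0.679 to 1.40 times that of Mt1 in the same library, with a median of 1.11. In reads it was 0.320 to 0.659 times, with a median of 0.526. The listed length is 1246 bases for Mt1, its whole genomic span, and 588 bases for Mt2, less than its span. The ratio per length, and how near the 2 FPKM levels lie, therefore depend on these listed lengths. An antisense long noncoding gene, Gm45774, overlaps 749 of the 905 bases of Mt2 and was given 0.427% to 2.64% as many reads, so reads of the pair cannot be told apart if counting ignored strand, which the sources used here do not give.

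**Figure D1:**
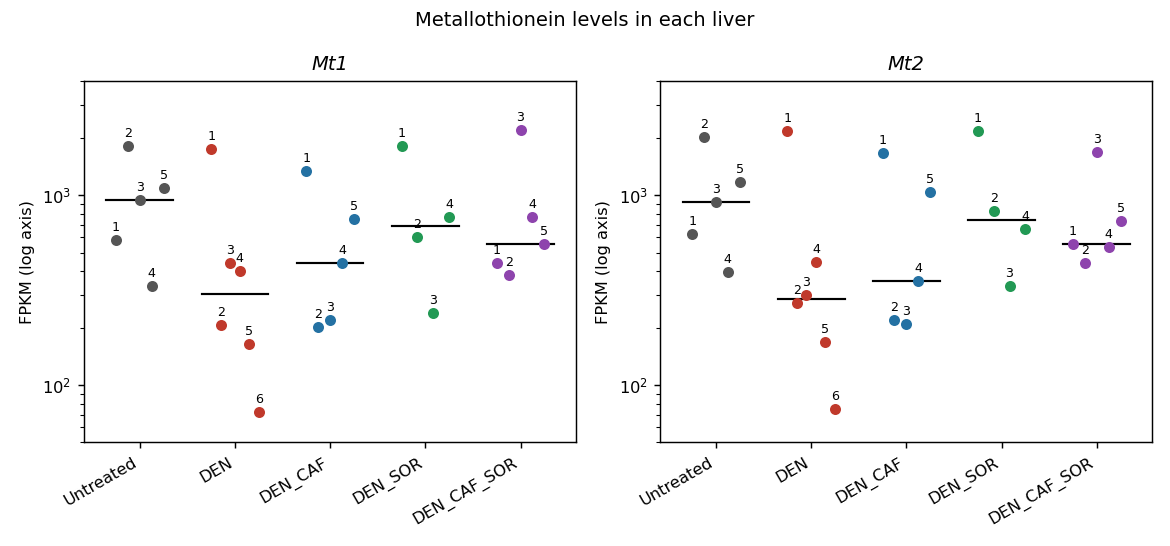
Mt1 and Mt2 levels (FPKM, log axis) in each of the 25 livers by group, with 1 numbered point per library and the group median as a black line. Mice of 1 group spread over a wider range than the group medians, and in DEN the Mt1 level runs from 72.7 to 1747 FPKM.

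Both metallothioneins were lower in DEN than in Untreated, but did not pass the test adjusted over all genes. The log2 fold change was -1.43 for Mt1 (SE 0.68, 95% interval -2.84 to -0.02, unadjusted p = 0.0471, limma adjusted p = 0.295). It was -1.48 for Mt2 (SE 0.69, interval -2.90 to -0.06, unadjusted p = 0.0422, limma adjusted p = 0.279). At that unadjusted threshold 2096 of the 12741 genes passed in the same comparison. Without the libraries numbered 3 and 4 the Mt1 value was -2.03, without Untreated 3 to 5 it was -1.76 (limma adjusted p = 0.458), and edgeR gave -1.05. For Mt2 leaving out Untreated 3 to 5 gave -1.83 and edgeR gave -0.99. Here and below, leaving out Untreated 3 to 5 keeps only Untreated 1 and 2, so such values rest on few mice.

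Mean metallothionein levels were higher in the drug groups than in DEN, with intervals that all included 0. Against DEN, the Mt1 difference was 0.60 on the log2 scale for DEN_CAF (interval -0.81 to 2.01), 1.15 for DEN_SOR (-0.36 to 2.65) and 1.19 for DEN_CAF_SOR (-0.22 to 2.60). The Mt2 differences were 0.63 (-0.79 to 2.05), 1.33 (-0.19 to 2.84) and 1.13 (-0.29 to 2.56) in the same order. The limma adjusted p of these 6 values was 0.862 or more. Single mice moved them: with 1 library left out the Mt1 values ran from 0.19 (without DEN 6) to 1.10 in DEN_CAF, from 0.67 (without DEN_SOR 1) to 1.65 in DEN_SOR and from 0.77 (without DEN_CAF_SOR 3) to 1.69 in DEN_CAF_SOR, with the highest of each without DEN 1. The Mt2 values ran from 0.19 (without DEN_CAF 1) to 1.19, from 0.84 (without DEN_SOR 1) to 1.89 and from 0.72 (without DEN 6) to 1.69, again highest without DEN 1. Without the libraries numbered 3 and 4, DEN_CAF gave 1.19 (Mt1) and 1.30 (Mt2), DEN_SOR gave 2.03 and 2.18, and DEN_CAF_SOR gave 0.82 and 0.93. Here and below, that setting keeps only DEN_SOR 1 and 2 of the sorafenib group, and DEN_SOR 1 is its highest library in Mt1 and Mt2. With intervals this wide, a 4-fold higher level in each drug group lies inside all 6. The interaction of the drugs, which asks whether both together differ from the sum of each alone, was -0.55 for Mt1 (interval -2.66 to 1.55) and -2.40 without the libraries numbered 3 and 4.

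SLC39A14 carries zinc, manganese and non-transferrin iron into hepatocytes, and its gene is induced in liver by interleukin 6. It stood at 21.4, 40.6, 21.6, 20.4 and 15 FPKM in Untreated libraries 1 to 5, and in DEN at 12.7 (lowest), 15.4 (median) and 37.6 (highest, DEN 1). In DEN_CAF libraries 1 to 5 it stood at 21.6, 18.8, 14.7, 18.2 and 21 FPKM. Sorafenib-treated DEN_SOR livers 1 to 4 had 32.9, 20.8, 13.8 and 27.3 FPKM, and DEN_CAF_SOR livers 1 to 5 had 19.7, 12.6, 28.4, 17.6 and 18.1. All groups overlapped, and a single mouse stood high in Untreated, in DEN and, less far, in DEN_CAF_SOR. The log2 difference was -0.35 for DEN against Untreated (interval -0.90 to 0.19, limma adjusted p = 0.542). It was -0.73 without Untreated 3 to 5, -0.57 without DEN 1 and -0.15 without Untreated 2. Against DEN it was 0.10 for DEN_CAF (-0.45 to 0.64), 0.36 for DEN_SOR (-0.22 to 0.94) and 0.10 for DEN_CAF_SOR (-0.45 to 0.64).

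The 4 mice with the highest Slc39a14 were the 4 with the highest Mt1 and the 4 with the highest Mt2: Untreated 2, DEN 1, DEN_SOR 1 and DEN_CAF_SOR 3. This was tested as a correlation over the 25 libraries after each group's mean was subtracted, over all 21 pairs of members, with permutation p-values (100000 resamples, two-sided). Mt1 and Mt2 had Pearson r = 0.966 and Spearman rho = 0.940 (permutation p = 1e-05 for both, the smallest the resamples can give, adjusted p = 0.00014 and 0.00021). Mt1 and Slc39a14 had r = 0.776 and rho = 0.674 (permutation p = 2e-05 and 0.00044, adjusted p = 0.00014 and 0.00308), and Mt2 and Slc39a14 had r = 0.772 and rho = 0.688 (permutation p = 2e-05 and 0.00018, adjusted p = 0.00014 and 0.00189). Without the 2 libraries farthest from the median of the first gene of the pair, r was 0.947, 0.711 and 0.691. Within the libraries numbered 3 and 4 it was 0.933, 0.854 and 0.821, and within the other 15 it was 0.996, 0.753 and 0.751. The relation of the metallothioneins with Slc39a14 was therefore present in both sets of libraries.

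**Figure D2:**
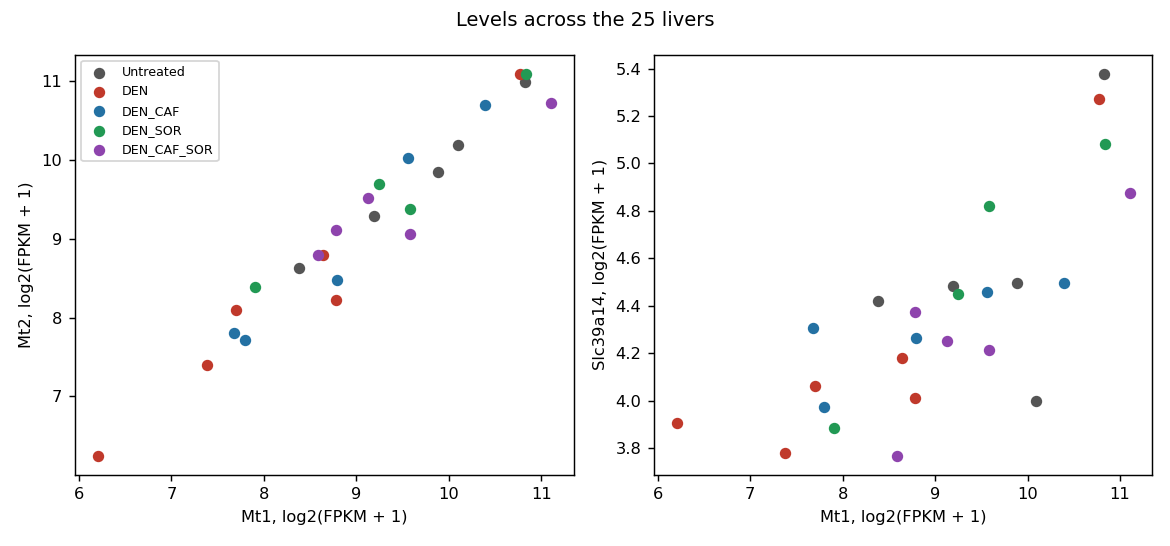
Level of Mt1 against that of Mt2 (left) and Slc39a14 (right), all as log2(FPKM + 1), in the 25 livers, 1 point per library, coloured by group. The same 4 libraries stand at the top right of both plots, and with group means subtracted r is 0.966 for Mt2 and 0.776 for Slc39a14.

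The zinc exporter gene Slc30a1 had r = 0.160 with Mt1 (adjusted permutation p = 0.651). It stood at 7.74, 10.1, 6.77, 7.01 and 7.47 FPKM in Untreated libraries 1 to 5, and in DEN at 3.92 (lowest), 7.89 (median) and 9.74 (highest). In DEN_CAF libraries 1 to 5 it stood at 7.29, 6.51, 4.35, 4.45 and 13.2 FPKM. Libraries numbered 3 and 4 were the 2 lowest of each of the 5 groups. The level in DEN_SOR libraries 1 to 4 was 9.10, 9.85, 3.14 and 2.53 FPKM, and in DEN_CAF_SOR libraries 1 to 5 it was 8.32, 9.62, 6.83, 4.70 and 7.21. The group means lay between 6.15 ± 3.85 FPKM in DEN_SOR (SD, n = 4) and 7.82 ± 1.33 in Untreated (n = 5). The log2 difference was -0.16 for DEN against Untreated (interval -0.77 to 0.44), and -0.34 without Untreated 3 to 5. Against DEN it was -0.03 for DEN_CAF (-0.64 to 0.57), -0.30 for DEN_SOR (-0.95 to 0.34) and 0.07 for DEN_CAF_SOR (-0.54 to 0.67).

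Slc30a1 varied with the number of the library and, over all 25, with its mitochondrial share. These go together, since the highest shares were in libraries numbered 3 and 4. With the group as a term, the libraries numbered 3 and 4 had a log2 level 0.76 lower than the others (difference -0.76, interval -1.02 to -0.51, limma adjusted p = 0.000338). The labels do not name this grouping. Neither this contrast nor the relations with the mitochondrial share were among the planned tests. Slc30a1 was the only member called in that contrast, in which 26.6% of all tested genes were called and 18.9% were called lower. With library totals that leave out mitochondrial genes, the difference was -0.60 (limma adjusted p = 0.00102). Over the 25 libraries with group means subtracted, Slc30a1 had r = -0.776 and rho = -0.802 with the mitochondrial share (permutation p = 1e-05 for both, the smallest the resamples can give, adjusted p = 7e-05 over 7 relations). Without the 2 libraries farthest from the median share r was -0.727, within the libraries numbered 3 and 4 it was -0.552 and within the other 15 it was -0.282. With mitochondrial genes left out of the total it was -0.232 within those 15, where the share runs only from 5.65% to 9.81%. Over so narrow a range a weak r cannot show whether the relation holds there. Slc39a7 had r = -0.739 and rho = -0.631 (permutation p = 0.0002 and 0.0009, adjusted p = 0.0007 and 0.00315), with r = -0.546 without the 2 farthest libraries. For Slc39a7 r was -0.795 within the libraries numbered 3 and 4 and 0.140 within the others. The limit of a narrow range applies to Slc39a7 and Slc39a4 as well. Slc39a4 had r = -0.464 and rho = -0.469 (permutation p = 0.0221 and 0.0187, adjusted p = 0.0516 and 0.0437), with -0.343 without the 2 farthest libraries, -0.982 within libraries numbered 3 and 4 and -0.152 within the others. Mitochondrial reads are part of the library total, and with them left out of the total r was -0.641 for Slc30a1 and -0.637 for Slc39a7. What the mitochondrial share stands for was not tested.

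**Figure D3:**
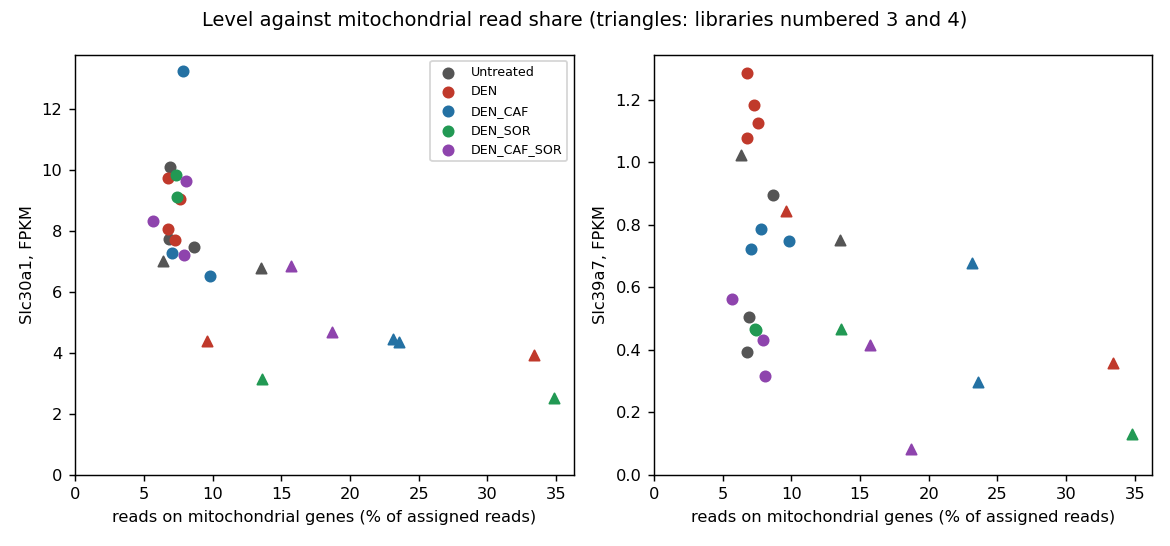
Levels of Slc30a1 (left) and Slc39a7 (right), in FPKM, against the share of assigned reads from mitochondrial genes (percent), 1 point per library, coloured by group, with triangles for libraries numbered 3 and 4. Libraries of high share are low in both genes, and with group means subtracted r is -0.776 and -0.739. Within the 15 libraries not numbered 3 or 4, where the share runs only from 5.65% to 9.81%, it is -0.282 and 0.140.

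Slc30a10, the manganese exporter of the bile canaliculus, had the lowest log2 difference of the 7 members for DEN_SOR against DEN. In Untreated libraries 1 to 5 it stood at 6.07, 6.96, 18.4, 17.1 and 12.2 FPKM. In DEN the lowest library, DEN 4, had 4.08 FPKM, the median was 14.0 and the highest was 17.1. In DEN_SOR libraries 1 to 4 it stood at 4.27, 2.22, 6.19 and 6.18 FPKM. Of the DEN mice, 5 of 6 lay above every DEN_SOR mouse and DEN 4 lay among them, and the 3 highest Untreated mice were the 3 with Xist reads. In DEN_CAF libraries 1 to 5 Slc30a10 stood at 11.8, 13.2, 9.24, 10.7 and 5.05 FPKM, and in DEN_CAF_SOR libraries 1 to 5 at 9.07, 9.19, 2.53, 6.58 and 11. The means were 13.1 ± 4.83 FPKM in DEN (SD, n = 6), 12.2 ± 5.66 in Untreated (n = 5), 10.0 ± 3.12 in DEN_CAF (n = 5), 7.68 ± 3.28 in DEN_CAF_SOR (n = 5) and 4.71 ± 1.89 in DEN_SOR (n = 4).

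For DEN_SOR against DEN the Slc30a10 log2 difference was -1.26 (SE 0.38, interval -2.06 to -0.47, unadjusted p = 0.00305), which did not pass the adjustment (limma adjusted p = 0.555). In that comparison 789 of 12741 genes had an unadjusted p under 0.05. Leaving out 1 library at a time gave -1.54 to -1.01. Leaving out all libraries numbered 3 and 4, which keeps only DEN_SOR 1 and 2 of the sorafenib group, gave -1.89. With both drugs the difference from DEN was -0.71 (interval -1.45 to 0.04, unadjusted p = 0.0613, limma adjusted p = 1.00), with caffeine alone it was -0.31 (-1.05 to 0.44), and DEN_CAF exceeded DEN_SOR by 0.96 (0.14 to 1.78, unadjusted p = 0.0242, limma adjusted p = 1.00). The interaction was 0.86 (interval -0.24 to 1.97), and 1.94 without the libraries numbered 3 and 4, and was not called. Against Untreated, DEN_SOR gave -1.16 (SE 0.40, interval -1.98 to -0.33, unadjusted p = 0.00788, limma adjusted p = 0.111) and DESeq2 called it at -1.29 (adjusted p = 0.0271). The value depends on the Untreated libraries with Xist: without them it was -0.46 (limma adjusted p = 0.737). For DEN against Untreated the difference was 0.11 (-0.63 to 0.85), and 0.80 without those libraries. Beside these values, the summed level of 7 liver endothelium markers, none of them at 0 in any library, was 27.2 to 51.5 FPKM in DEN and 9.16 to 35.7 in DEN_SOR, and its part was not tested. The antisense gene Gm2061, which overlaps 721 of the 13915 bases of Slc30a10, was also lowest in DEN_SOR, with means of 1.76 FPKM in Untreated, 1.5 in DEN and 0.482 in DEN_SOR, and had 2.56% to 7.34% as many reads as Slc30a10.

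SLC39A7 releases zinc from the endoplasmic reticulum and Golgi, and its gene was the least abundant member, with 4 to 60 reads per library. It passed the filter on low values, an FPKM of 1 in at least 4 libraries, through 4 DEN libraries and Untreated 4, so a high level in DEN is built into its being tested. In DEN the lowest library had 0.357 FPKM, the median was 1.10 and the highest was 1.28. In Untreated libraries 1 to 5 it stood at 0.394, 0.505, 0.750, 1.02 and 0.895 FPKM, and in DEN_CAF libraries 1 to 5 at 0.721, 0.748, 0.298, 0.677 and 0.786. In DEN_SOR libraries 1 to 4 it stood at 0.462, 0.466, 0.466 and 0.131 FPKM, and in DEN_CAF_SOR libraries 1 to 5 at 0.561, 0.317, 0.416, 0.0825 and 0.431. The 9 mice given sorafenib had at most 0.561 FPKM, and 5 of 6 DEN mice had at least 0.844, with DEN 3 among the sorafenib mice.

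The Slc39a7 log2 difference was 0.20 for DEN against Untreated (interval -0.10 to 0.50), and 0.43 without Untreated 3 to 5. Against DEN it was -0.25 for DEN_CAF (interval -0.55 to 0.05), -0.51 for DEN_SOR (SE 0.15, -0.83 to -0.19, unadjusted p = 0.00327, limma adjusted p = 0.563) and -0.53 for DEN_CAF_SOR (SE 0.15, -0.83 to -0.23, unadjusted p = 0.00131, limma adjusted p = 1.00). In the last comparison 346 genes had an unadjusted p under 0.05. The log2(FPKM + 1) scale understates changes at such low levels: edgeR on the recovered reads gave -1.35 for DEN_SOR and -1.44 for DEN_CAF_SOR. In the test of any difference among the 5 groups the limma adjusted p was 0.206, while DESeq2 gave an adjusted p of 0.00667. Since Slc39a7 passed the filter through 4 DEN libraries and Untreated 4, none of these p-values is independent of a high level in DEN. Against Untreated, DEN_CAF_SOR gave -0.33 (interval -0.64 to -0.02, unadjusted p = 0.0406, limma adjusted p = 0.406), and -0.10 without Untreated 3 to 5. The noncoding gene Gm20427 covers 3312 of the 3414 bases of Slc39a7 on the same strand and was given 0% to 125% as many reads. How reads were split between them is uncertain, and the Slc39a7 level with it.

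Slc39a4 encodes the zinc importer best known from the intestine, whose loss causes acrodermatitis enteropathica. In Untreated libraries 1 to 5 it stood at 6.98, 7.69, 8.66, 16.9 and 11.6 FPKM. In DEN the lowest library had 4.33 FPKM, the median was 6.13 and the highest, DEN 4, had 45.4. In DEN_CAF libraries 1 to 5 it stood at 5.80, 6.88, 4.40, 5.55 and 15 FPKM. Of the 6 DEN mice, 5 lay below every Untreated mouse and DEN 4 lay above every other mouse of the study. In DEN_SOR libraries 1 to 4 Slc39a4 stood at 18.3, 6.36, 10.6 and 2.10 FPKM, and in DEN_CAF_SOR libraries 1 to 5 at 13.0, 8.07, 3.55, 4.05 and 6.73. The log2 difference for DEN against Untreated was -0.23 (interval -1.22 to 0.77, limma adjusted p = 0.870), and its sign turned with edgeR (0.28) and without Untreated 3 to 5 (0.16). It was -0.69 without DEN 4, -0.53 without libraries numbered 3 and 4, and -0.05 without Untreated 4. Against DEN it was -0.24 for DEN_CAF (-1.23 to 0.76), -0.13 for DEN_SOR (-1.19 to 0.92) and -0.32 for DEN_CAF_SOR (-1.32 to 0.67).

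The DEN 4 liver stood apart in other genes as well. Of 8 hepatocyte markers, it was the highest of the 25 libraries in Alb (58620 FPKM, median 22650) and Apoa1 (22550, median 7961). It was the lowest in Cyp2e1 (45.3, median 1922) and Cps1 (52.7, median 339.8), and at neither end in Hnf4a, Apob, Ttr and Serpina1c. Its summed level of neutrophil and monocyte markers was 391 FPKM, nearly all of it S100a9 at 238 and S100a8 at 137 FPKM, against sums of 3.71 to 23.5 in Untreated, 5.63 to 17.5 in DEN_CAF and 7.70 to 19.8 in DEN_CAF_SOR. Retnlg and Itgam of that list were also highest in DEN 4 (12.6 and 1.84 FPKM), while Ly6g (0.0538) and Ly6c2 (0.0740) were below their medians over all libraries (0.315 and 0.0996). Among intestinal markers its sum of 95.1 FPKM ranked second of 25 and was nearly all Fabp2 (94.4 FPKM, 24.1 to 105 over all libraries). Vil1 (0.614 FPKM, median 0.307) and Lct (0.0317, median 0.00786) were above their medians over all libraries. Muc2 (0.0109, median 0.0193) and Lgr5 (0.0642, median 0.354) were below theirs, and Cdx2 was listed at 0, as in 24 of the 25 libraries. Among exocrine pancreas markers the DEN 4 sum of 26.7 FPKM lay within the Untreated range of 8.76 to 31.9. Cela1 was at 21.6 FPKM (4.23 to 31.9 over all libraries, highest in Untreated 1) and Prss2 at 5.10 FPKM, its highest library. Ctrb1, Pnlip, Cpa1, Cela2a and Amy2a5 were listed at 0 in DEN 4. The Y-linked Ddx3y had 132 reads in DEN 4, against 914 to 1689 in the other DEN-injected libraries and 30 to 84 in Untreated 3 to 5. Xist had 2 reads in DEN 4. The part of these in the Slc39a4 level was not tested. DEN 4 was also the lowest DEN library in Slc30a10.

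**Figure D4:**
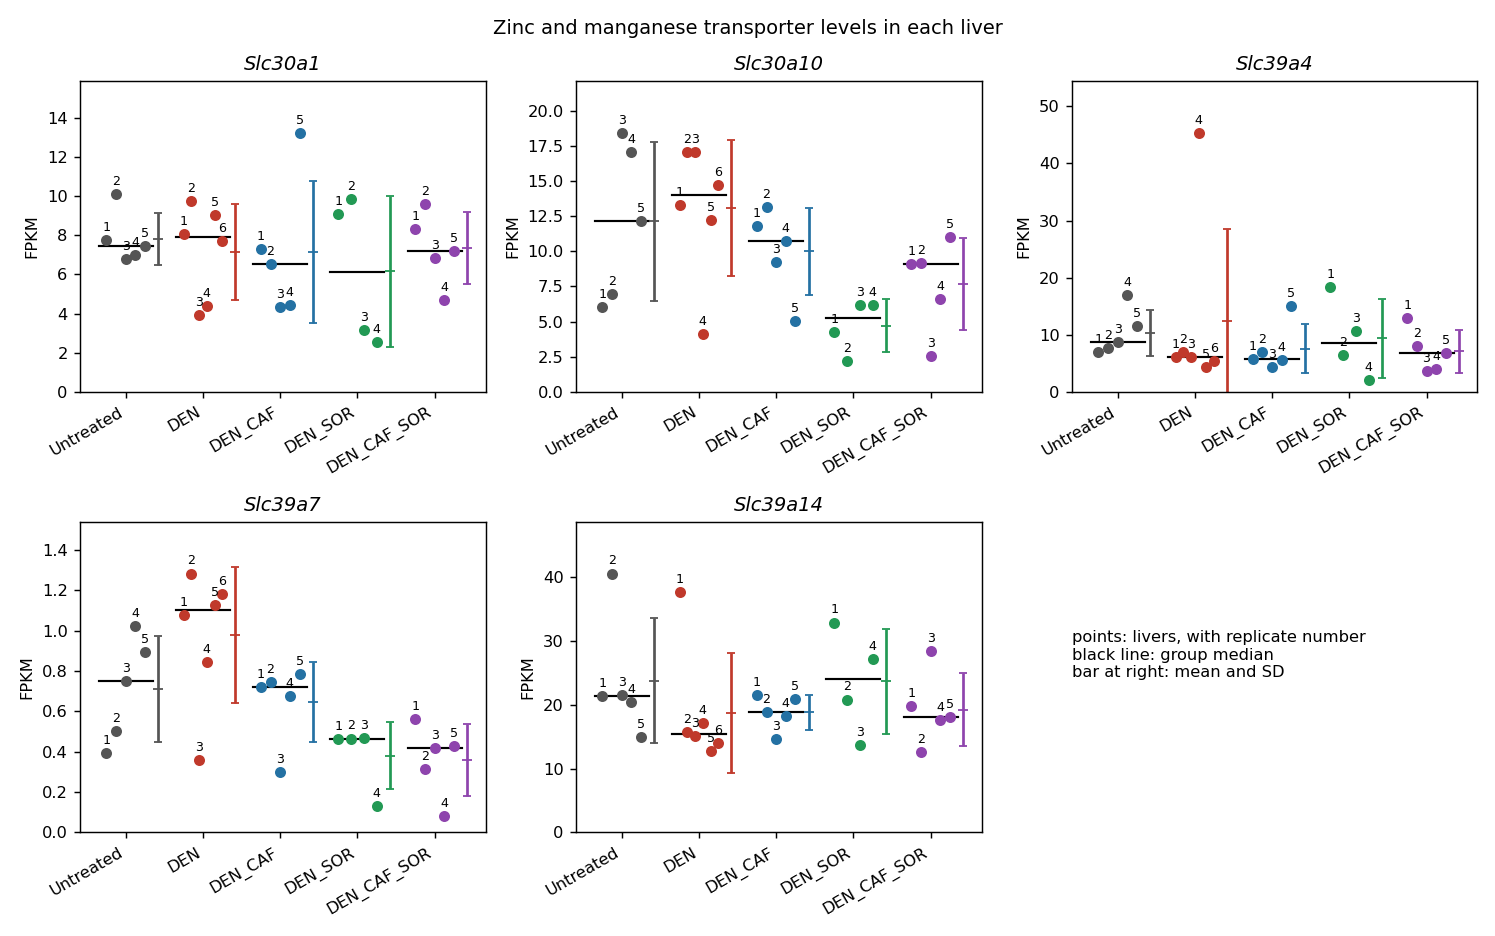
Levels of the 5 transporter genes (FPKM) in each liver by group, 1 numbered point per library, with the group median as a black line and the mean with SD as a bar at its right (cut at 0 for Slc39a4 in DEN). Slc30a10 runs from 2.22 to 6.19 FPKM in DEN_SOR against 4.08 to 17.1 in DEN, and 1 DEN mouse stands at 45.4 FPKM of Slc39a4.

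**Figure D5:**
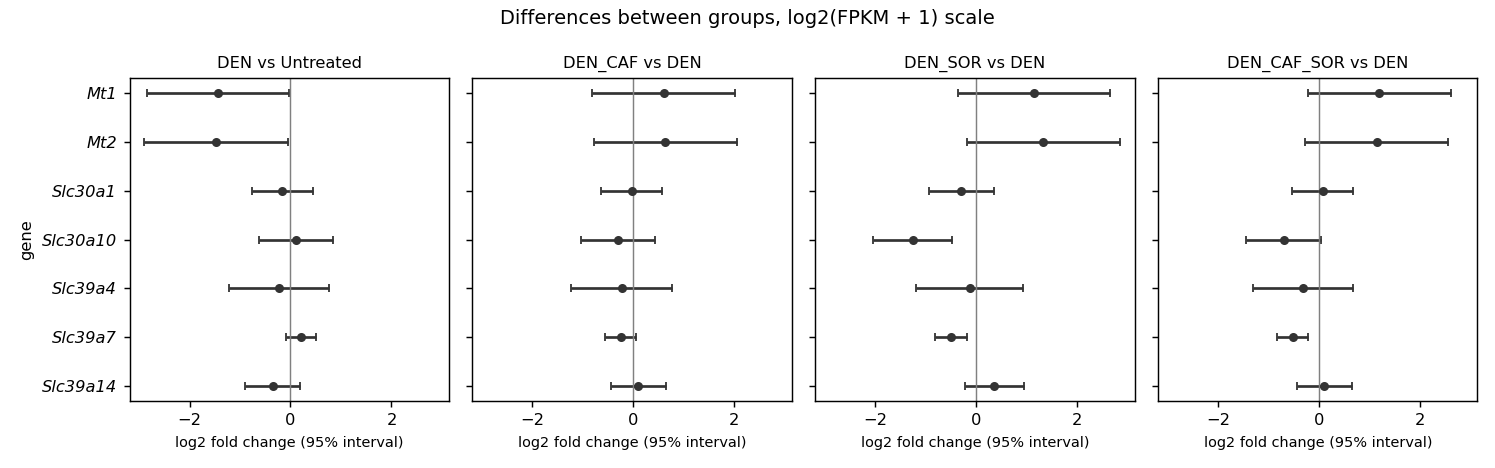
Log2 difference (log2(FPKM + 1) scale, limma) of each member for DEN against Untreated and for each drug group against DEN, with 95% intervals. Of the 28 intervals, those of Mt1 and Mt2 (DEN against Untreated), of Slc30a10 (DEN_SOR) and of Slc39a7 (DEN_SOR and DEN_CAF_SOR) exclude 0, and none passes the adjustment over 12741 genes. Slc39a7 passed the filter on low values through 4 DEN libraries and Untreated 4, so its intervals against DEN are not independent of that filter.

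Across the 7 members, 2 were higher and 5 lower in DEN than in Untreated, with a median log2 difference of -0.23 against 0.03 over all tested genes. Against DEN the median was -0.03 for DEN_CAF (3 higher, 4 lower), -0.13 for DEN_SOR (3 higher, 4 lower) and 0.07 for DEN_CAF_SOR (4 higher, 3 lower), beside 0.02, -0.02 and 0.01 over all genes. Against Untreated all 7 were lower in DEN_CAF (median -0.26) and in DEN_CAF_SOR (-0.33), and 6 of 7 in DEN_SOR (-0.31), beside 0.043, 0.028 and -0.0025 over all genes. Those 3 comparisons share the Untreated libraries. Without Untreated 3 to 5 the lower members were 5, 6 and 6 in the same groups (DEN_CAF, DEN_CAF_SOR, DEN_SOR), and without libraries numbered 3 and 4 they were 4, 5 and 2. The other metallothionein and zinc transporter genes comprised 22 listed, of which 14 were tested, and 0 were called in any comparison by limma. For DEN against Untreated 12 of those 14 were higher and 2 lower (median 0.14), with the largest values for Mt3 (0.59, SE 0.38, limma adjusted p = 0.460) and Slc39a6 (0.30, SE 0.13, limma adjusted p = 0.235). Mt3 was highest in DEN 3 (6.05 FPKM, median 0.771 over all libraries) and Slc39a6 in DEN 1 (1.16, median 0.774). Against DEN the median of the 14 genes was -0.05 for DEN_CAF, -0.09 for DEN_SOR and -0.02 for DEN_CAF_SOR.

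Among 11 genes of zinc sensing and the MTF1 pathway, which include Mt1, Mt2 and Slc30a1, 1 was called for DEN against Untreated. This was Gpr39, a zinc-sensing receptor, which rose from 1.55 ± 0.21 FPKM in Untreated (SD, n = 5) to 3.22 ± 1.19 in DEN (n = 6), a log2 change of 0.69 (SE 0.18, limma adjusted p = 0.0408). The groups did not overlap (1.24 to 1.77 against 2.39 to 5.62 FPKM). The call was lost without Untreated 3 to 5 (0.58, limma adjusted p = 0.349), without libraries numbered 3 and 4 (0.49, limma adjusted p = 0.146), without any 1 Untreated library (limma adjusted p up to 0.104, without Untreated 3), and without DEN 2, 3, 4 or 5 (up to 0.0880, without DEN 4). It was also lost without DEN_CAF 2 or DEN_CAF_SOR 5, which share the fit (up to 0.0517), with no filter on low values (0.0738), with only the compared groups in the fit (0.0704) and with the replicate block (0.0595). Of 13 tested genes of copper and manganese handling 0 were called, with Cp, the copper-carrying ferroxidase, at 0.57 (limma adjusted p = 0.446) and Ccs, the copper chaperone of Sod1, at -0.44 (limma adjusted p = 0.267). DEN 4 was the highest library for Cp (458 FPKM, median 99.8 over all libraries) and the lowest for Ccs (44.7, median 115.9).

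Genes of the pathways known to induce metallothioneins were read in the same way, first for DEN against Untreated. Of 17 tested glucocorticoid response genes 1 rose, Cdkn1a, a cell cycle inhibitor that p53 also induces (log2 change 2.73, limma adjusted p = 0.00531), and the list's median was -0.15. Without Untreated 3 to 5 that call was lost (2.91, limma adjusted p = 0.108). Of 26 tested interleukin 6 and acute phase genes 0 were called, 10 were higher and 16 lower (median -0.16). The neutrophil-associated Lcn2 was at 2.36 (limma adjusted p = 0.398), with 1981 FPKM in DEN 4 against a median of 23.0 over all libraries. The hepcidin gene Hamp2 was at -2.08 (limma adjusted p = 0.303). Its highest library was Untreated 3 (1204 FPKM), which has Xist reads, and its lowest DEN 4 (4.78), against a median of 45.8 over all libraries. Of 16 tested genes of NRF2 oxidant defence 1 rose, the glutathione transferase Gsta1 (2.48, limma adjusted p = 0.0136, and 3.58 at 0.0107 without Untreated 3 to 5), and 12 were higher and 4 lower (median 0.44). Of 19 genes of the unfolded protein and integrated stress response 0 were called, 15 were higher and 4 lower (median 0.26), with the chaperone genes Creld2 at 1.09 (limma adjusted p = 0.0588) and Hspa5 at 0.84 (limma adjusted p = 0.163). DEN 4 was the highest library for 9 of these 19 genes, Creld2 and Hspa5 among them, and without it the list's median was 0.16. The all-gene median was 0.03 for each of these lists. Against Untreated, limma also called list genes in the drug groups, which share the Untreated libraries. Cdkn1a was higher and Dusp1 lower in DEN_CAF and DEN_SOR, and Hsd11b1 was lower in DEN_SOR. Gsta1 was higher in each drug group, Srxn1 in DEN_CAF and Sesn2 in DEN_SOR. The all-gene median was 0.03 for each of these lists.

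The mean level of each of these 7 lists was also set against Mt1 over the 25 libraries, group means subtracted. The interleukin 6 and acute phase mean rose with Mt1 (r = 0.599, rho = 0.610, adjusted permutation p = 0.0128 and 0.0112 over 7 lists). Without the 2 farthest libraries r was 0.541, and it was 0.363 within libraries numbered 3 and 4 and 0.590 within the others. The zinc sensing mean (8 genes, members left out) had r = -0.465 (adjusted permutation p = 0.0686), with -0.784 within libraries numbered 3 and 4 and -0.249 within the others. The NRF2 mean had r = -0.399 (adjusted permutation p = 0.112), with -0.793 and -0.165 in the same sets. The other zinc genes, copper and manganese handling and the unfolded protein response had r = 0.131, -0.133 and 0.0159 (adjusted permutation p = 0.622, 0.622 and 0.940). The glucocorticoid mean had r = 0.285 (adjusted permutation p = 0.297), with -0.495 within libraries numbered 3 and 4 and 0.743 within the others.

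The genes whose levels ran most like each member over the 25 libraries are given by Pearson r of log2(FPKM + 1), as a description, since all share library depth and composition. For Mt1 they were Gm45774 (r = 0.827), Fetub (0.752) and Fgl1 (0.732), and for Mt2 they were Gm45774 (0.821), Srrm4 (0.756) and Klf13 (0.754). For Slc39a14 they were Il1r1, the interleukin 1 receptor (0.845), Tram2 (0.811) and Ldb1 (0.805). For Slc30a1 they were Zhx1 (0.940), Gm11868 (0.924) and Xrn2 (0.915). For Slc30a10 they were Gm2061, its antisense neighbour (0.925), 9430064I24Rik (0.831) and Npr1 (0.826). For Slc39a4 they were Slc16a11 (0.901), Vps28 (0.842) and Bcl10 (0.829), and for Slc39a7 the histone demethylase gene Kdm5c (0.827), Etv3 (0.751) and Kdm4a (0.747).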

How the data were processed

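Reads were aligned with HISAT2 2.0.5 to GRCm39 and counted per gene with featureCounts 1.5.0-p3, per the submitters' processing notes. Which annotation was used is not given in the sources used here. The tables the authors deposited, 1 per group, are named for FPKM but each column holds a signal, in which each library's whole reads were scaled by a single size factor and not by length. The design had assumed FPKM. Reads were therefore recovered and FPKM computed here from them, the listed gene lengths and the library totals. The 12741 genes that reached an FPKM of 1 in 4 or more libraries entered a limma fit (version 3.58.1, R 4.3.3) of log2 values with a pseudocount of 1, with 1 coefficient per group, eBayes with a trend and 20 residual degrees of freedom. Adjustment was by Benjamini-Hochberg at 0.05 in each of 11 comparisons. edgeR 4.0.16 (quasi-likelihood) and DESeq2 1.42.0 on the recovered reads were alternatives, as were other scalings, pseudocounts, filters, a batch term and leaving out libraries. The steps were tested on simulated data. Sample titles name separate mice; nothing else says how replicates were taken, so p-values measure the spread between these samples. The members and gene lists were chosen with earlier results of these data known. Named genes were the members, the 3 tested genes most like each, and from each list the called genes or, with none, the 2 with the largest difference for DEN against Untreated. Promoters for Slc39a4 and Slc39a14 are not analysed here.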

Additional observations from a re-analysis of the deposited data

Results flagged for a closer look

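Single mice stood far from the rest of their group in 12 of the 35 sets of values (7 genes in 5 groups), by the gap to the nearest mouse relative to the group's range. For independent normal values chance gives about 1 in 20 sets. These values are skewed and correlated between genes, and their own rate was not measured. In DEN, mouse 1 was high in Mt1 (1746.84 FPKM, nearest 437.865), Mt2 (2186.13, nearest 444.636) and Slc39a14 (37.6409, nearest 17.0977). In DEN_CAF_SOR, mouse 3 was high in Mt1 (2203.37 FPKM, nearest 765.884) and Mt2 (1693.93, nearest 732.928). In Untreated, mouse 2 was high in Slc39a14 (40.5893 FPKM, nearest 21.5862) and in Slc30a1 (10.1084, nearest 7.73757).

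In DEN, mouse 4 was high in Slc39a4 (45.3762 FPKM, nearest 6.92474) and low in Slc30a10 (4.08196, nearest 12.2461). In DEN_CAF, mouse 5 was high in Slc39a4 (15.0112 FPKM, nearest 6.88418) and mouse 3 low in Slc39a7 (0.298228, nearest 0.677037). In DEN_SOR, mouse 4 was low in Slc39a7 (0.131183 FPKM, nearest 0.461924).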

How the results depend on the processing

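No member was called under any alternative except by DESeq2, which called 1 for DEN_SOR against Untreated (Slc30a10) and 1 for any difference among the 5 groups (Slc39a7). The Slc39a7 call is not independent of the filter on low values, which it passed through 4 DEN libraries and Untreated 4. Of the 77 log2 differences, 39 kept their sign under all 12 alternatives and 25 leave-one-out fits and 38 did not. None of the 8 with an unadjusted limma p under 0.05 changed sign. Those 8 were picked for lying far from 0 in the same data, so a kept sign is no separate test of them. Without the libraries numbered 3 and 4, among DEN against Untreated and the drug groups against DEN, signs turned for Slc30a1 in DEN against Untreated (0.037), DEN_SOR against DEN (0.12) and DEN_CAF_SOR against DEN (-0.042), for Slc39a4 against DEN in DEN_CAF (0.52), DEN_SOR (0.85) and DEN_CAF_SOR (0.58), and for Slc39a14 in DEN_CAF_SOR against DEN (-0.12). Among the other comparisons they turned, for example, for Mt1 in DEN_CAF_SOR against DEN_SOR (-1.21) and against DEN_CAF (-0.38) and for Slc30a10 in DEN_CAF_SOR against Untreated (0.24). With those libraries as a batch term Slc30a1 was 0.019 in DEN_CAF against DEN. Slc39a4 in DEN against Untreated was 0.28 by edgeR, 0.31 by DESeq2 and 0.16 without Untreated 3 to 5. Slc39a14 in DEN_CAF against DEN was -0.010 by edgeR and -0.019 by DESeq2. The correlation of Slc30a1 with Slc39a7 was 0.552, and -0.070 outside the libraries numbered 3 and 4. Scalings for the contrast of those libraries were chosen after seeing the data: with totals without mitochondrial genes, Mt1 (0.080), Slc39a4 (0.068) and Slc39a14 (0.078) turned sign. The cause of these turns was not tested.

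Leaving out 1 library moved Slc30a10 in DEN against Untreated from -0.086 to 0.38. Against DEN it moved Slc30a1 from -0.26 to 0.10 in DEN_CAF and from -0.068 to 0.20 in DEN_CAF_SOR, and Slc39a14 from -0.049 to 0.31 in DEN_CAF_SOR. Slc39a4 moved from -0.49 to 0.23 in DEN_CAF, -0.53 to 0.35 in DEN_SOR and -0.55 to 0.14 in DEN_CAF_SOR. Members called stayed at 0 in each of these fits.

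The labels do not say that replicate numbers pair mice, and the data did not meet the rule of every pair above 0.1: 25 of 46 same-numbered pairs correlated above 0.1 (-0.28 to 0.54, mean 0.12, against -0.03 for different numbers), and 7 of 25 libraries correlated best with their own number. With the replicate block 0 members were called, and genes called for DEN against Untreated were 359, against 260 without it. That count was 598 by edgeR, 1040 by DESeq2 and 44 without Untreated 3 to 5, and 146 (without Untreated 3) to 332 with 1 library left out. It split into 128 higher and 132 lower, and 219 and 101 with totals without mitochondrial genes or 141 and 297 with TMM. For any difference the counts were 121, 276 by edgeR, 838 by DESeq2 and 10 without Untreated 3 to 5. Using only the compared groups was not run for that test. Depth limits Slc39a7, with 4 to 60 reads per library.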
